A study of Mus musculus with 2 samples.

Results

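The regions described here lie in the 5 megabases of the mouse genome (build mm9) that held most regions of monomethylated histone H3 lysine 4 (H3K4me1) in pre-B cells. A region belonged to the set when its midpoint fell in 1 of 5 windows of 1 Mb: chromosome 10 from 79000001 to 80000000 and from 80000001 to 81000000, chromosome 2 from 166000001 to 167000000, chromosome 5 from 115000001 to 116000000, and chromosome 17 from 29000001 to 30000000. This gave 464 of 48130 regions (0.964%) in 5 of 2579 windows (0.194%). The windows were picked by their region number, so their counts, gaps and covered shares are descriptions, and nothing was tested with them.

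The cells were pre-B cells from the bone marrow of RAG1-/- mice of the B6 (C57BL/6) strain, 6 to 14 weeks old and of both sexes, which carried a transgene for an already rearranged IgM. Both groups shared this genotype and source: 1 library precipitated with an H3K4me1 antibody and 1 input library made without antibody, which entered only through the authors' region calling. The labels do not give the number of mice behind either. Per the file header, the H3K4me1 library held 50945360 tags, of which 15701950 (30.8%) lay in called regions. Because a single library was precipitated, no test between replicates was possible. All intervals below reflect only the number of regions or gaps, or the spread of their values, within this library. None measures variation between replicates. They also treat regions as independent, which neighbours are not, and are therefore too narrow. No gene positions on mm9 were used, so no marker locus was looked up and the labelled cell type was not checked.

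H3K4me1 is placed mainly by the methyltransferases KMT2C and KMT2D and marks enhancers, both active and poised, and the flanks of active promoters. Gene-rich chromosome stretches carry many promoters and enhancers side by side, and the mark there often forms rows of regions broken by short dips. Pre-B cells sit between rearrangement of the immunoglobulin heavy-chain and light-chain genes. Cells without RAG1 cannot rearrange these genes, and an IgM transgene lets them reach the pre-B stage.

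General knowledge of the mouse genome, and not the files, places some well-known genes in these stretches. Those of chromosome 10 include Tcf3, whose E2A proteins specify the B lineage, Stk11, which encodes the kinase LKB1, the stress-response gene Gadd45b, and Elane, which encodes neutrophil elastase. Chromosome 2 has Prex1, an activator of Rac GTPases, and Stau1, which encodes an RNA-binding protein. Chromosome 5 has Msi1, which encodes the RNA-binding protein Musashi. Chromosome 17 has Pim1, a kinase gene induced by cytokines, and Cdkn1a, which encodes the cell cycle inhibitor p21. In the RefSeq gene table of GRCm38.p6, another build used only for names and order, Cdkn1a directly follows the splicing factor gene Srsf3 and Tcf3 lies between Uqcr11 and Onecut3. Which of the regions below lie at these genes was not analysed here.

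The first chromosome 10 window held 98 regions (Poisson 95% interval 79.6 to 119.4) and the second held 97 (78.7 to 118.3). The chromosome 2 window held 94 (76.0 to 115.03), that of chromosome 5 held 89 (71.5 to 109.5) and that of chromosome 17 held 86 (68.8 to 106.2). The other 2574 windows had a median of 13 regions. The last place was a tie, because the window of chromosome 4 from 134000001 to 135000000 also held 86 regions. The next in the list, just outside, was the chromosome 2 megabase from 167000001 to 168000000, with 84 regions, which directly adjoins a window of the set. This megabase counts below both among the flanks and among the 20 next densest windows, so these sets are not separate. Against the mean density of their own chromosomes, the windows were 4.64 and 4.59 times as dense on chromosome 10, 4.64 times on chromosome 2, 4.32 times on chromosome 5 and 3.45 times on chromosome 17.

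**Figure D1:**
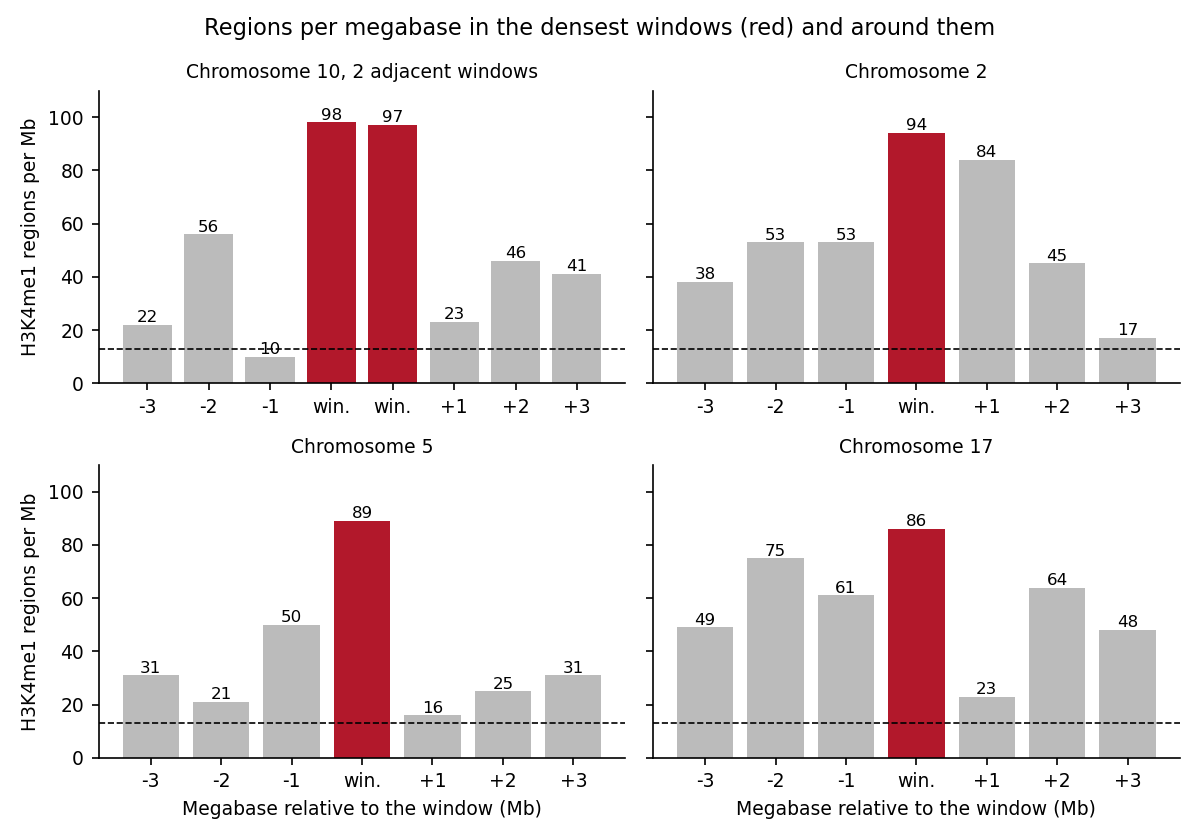
Bars give the number of H3K4me1 regions (midpoints) per megabase in each window (red) and in the 3 megabases on either side (grey), and the dashed line marks the median of 13 over all other windows. The chromosome 10 pair stands between megabases of 10 and 23 regions, and the chromosome 2 window of 94 stands beside one of 84.

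The surroundings of the windows differed. The chromosome 10 pair was bounded by sparse megabases, with 10 regions from 78000001 to 79000000 and 23 from 81000001 to 82000000, so its mean of 97.5 regions per Mb was 5.91 times that of its flanks (counting interval 4.07 to 8.83). With 2 Mb on each side, where 56 and 46 further regions came in, that ratio was 2.89. On chromosome 5 the flanks held 50 and 16 regions, and the window had 2.70 times their mean (1.94 to 3.77). The chromosome 17 window, between 61 and 23 regions, had 2.05 times the mean of its flanks (1.498 to 2.80). The chromosome 2 window was the least set apart, at 1.37 times (1.04 to 1.80) the mean of flanks with 53 and 84 regions. Pooled, the windows held 92.8 regions per Mb and the 8 flanking megabases held 40.0, a ratio of 2.32 (2.01 to 2.68). Without the chromosome 10 pair, the pooled ratio was 1.87. Because the windows were picked for their counts, these ratios had to lie above 1, and intervals above 1 are no evidence of a difference.

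Gaps between neighbouring regions were short in all 5 windows. The median gap was 4.17 kb in the first chromosome 10 window and 3.53 kb in the second, 3.06 kb on chromosome 2, 4.05 kb on chromosome 5 and 3.40 kb on chromosome 17. Over the 459 gaps inside the windows the median was 3.66 kb (order-statistic 95% interval 3.16 to 4.42 kb), beside 6.92 kb (5.15 to 8.86 kb) over the 312 gaps inside the flanking megabases and 8.26 kb inside all other windows. In the 20 next densest windows, the most similar stretches of the list, it was 4.61 kb (4.19 to 5.11 kb), an interval that overlaps that of the 5 windows. Many small gaps in a window follow from its many regions, so this is largely the same property seen from another side. Region number alone does not set the median gap, though. In the megabase after the chromosome 5 window, with 16 regions and so only 15 gaps, it was 3.485 kb, shorter than in that window. The upper quartile of the gaps was longer there, though, at 39.3 kb beside 10.9 kb in the window. The other flanking megabases had longer median gaps than their windows. Gaps of up to 12.5 kb made up 81.7% (Wilson 95% interval 77.9 to 85.0%) of those in the windows, 64.4% (59.0 to 69.5%) of those in the flanks and 75.4% (73.2 to 77.4%) of those in the 20 next densest windows.

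Dips of up to 2.5 kb between neighbours numbered 179, or 39.0% of the gaps (34.6 to 43.5%), beside 29.5% (24.7 to 34.8%) in the flanks and 27.0% in all other windows. The 20 next densest windows had 34.3% (32.0 to 36.7%), which overlaps the interval of the 5 windows. Dips were most frequent on chromosome 17, where 41 of 85 gaps (48.2%) were dips of median length 1241 bases. On chromosome 5, at the other end, 30 of 88 gaps (34.1%) were dips. That was no more than in the megabase before it, with 34.7%. The chromosome 2 window likewise had 35.5%, beside 36.5% in the megabase before it. The other flanking megabases had lower shares than their windows. The first chromosome 10 window had 36 dips with a median of 839 bases, and the second had 39 with a median of 1130 bases. The shortest gap of the whole list was 499 bases, so these medians say nothing of dips shorter than that. Gaps over 50 kb numbered 7 in the windows (1.53%), 32 in the flanks (10.3%) and 35 in the 20 next densest windows (2.22%).

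The longest unmarked stretch inside a window was 76.7 kb, on chromosome 2 from 166007445 to 166084118. On chromosome 17 the longest was 66.8 kb, ending at 29974413, and on chromosome 5 it was 64.8 kb, from 115800255 to 115865095. Both chromosome 10 windows had shorter ones, of 54.1 kb (79077325 to 79131395) and 42.5 kb (80319429 to 80361895). In the megabase before the chromosome 10 pair a single gap reached 319.0 kb, and in the megabase after it the longest was 136.1 kb.

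Regions were also grouped into runs, rows without a gap over 50 kb. The main run of the chromosome 10 windows reached from 79131396 to 81168729, spanned 2.04 Mb and held 206 regions, the highest number among the 7437 runs of the list. Of these, 190 were in the windows, and regions covered 32.0% of the run. It began after a gap of 54.1 kb and ended 168.7 kb past the second window, before a gap of 136.1 kb. The chromosome 17 window was mostly 1 run as well, with 99 regions over 1.08 Mb from 28825925 to 29907608, which placed 10th by region number. This run began 174.1 kb before the window. The chromosome 5 window broke into 3 runs, of which the one with most members had 57 regions over 0.584 Mb, and the chromosome 2 window into 4, of which the one with most members had 37 regions over 0.290 Mb.

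Within the windows, regions were spread over all 10 bins of 100 kb. No bin of the 50 was empty, the lowest held 3 regions and the median bin held 10. At least 5 regions were found in 46 of the 50 bins, beside 36.1% of all bins in the list that held any region. The fullest bin lay on chromosome 2 from 166500001 to 166600000, with 16 regions that covered 34.6 kb of it. On chromosome 17 the bin from 29200001 to 29300000 held 14 regions, and they covered 57.0 kb of it, the largest covered length of the 50 bins. The lowest bins were those from 166000001 to 166100000 on chromosome 2 and from 115800001 to 115900000 on chromosome 5, each with 3 regions. The first 500 kb of the chromosome 17 window held 49 regions and the rest held 37, while on chromosome 5 these numbers were 45 and 44.

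**Figure D2:**
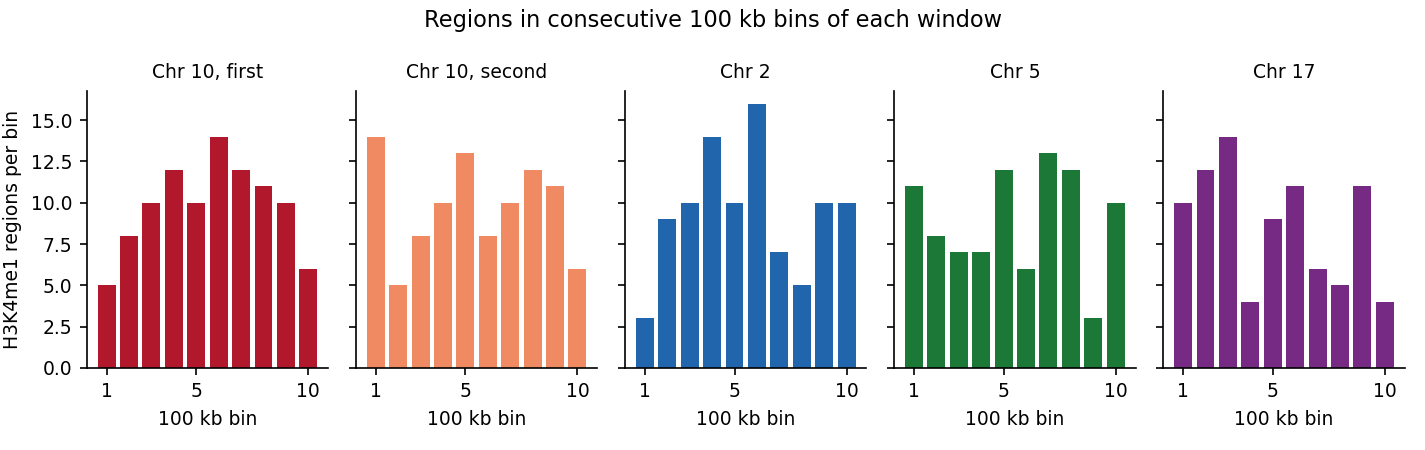
Bars give the number of H3K4me1 regions in 10 consecutive bins of 100 kb of each window. Counts run from 3 to 16 per bin, and both chromosome 10 windows keep at least 5 in each bin.

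Regions covered 26.99% of the 5 windows, beside 21.9% of the 20 next densest windows, 9.40% of the flanking megabases and 4.23% of all other windows. The median over single other windows was 2.26%. The second chromosome 10 window had the highest covered share of all 2579 windows, 31.9%, and the first had the next, 28.1%. By this measure the chromosome 17 window (26.9%) placed 6th, the chromosome 2 window (26.3%) placed 7th, and the chromosome 5 window (21.7%) only 24th. Windows with fewer regions lay between them. One on chromosome 8 (74000001 to 75000000) had 27.8% covered by 77 regions, and one on chromosome 16 (30000001 to 31000000) had 27.7% covered by 78. Across the other 2574 windows, region number and covered share had a Spearman rank correlation of 0.99, which describes this library, since a share is built from the same regions.

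**Figure D3:**
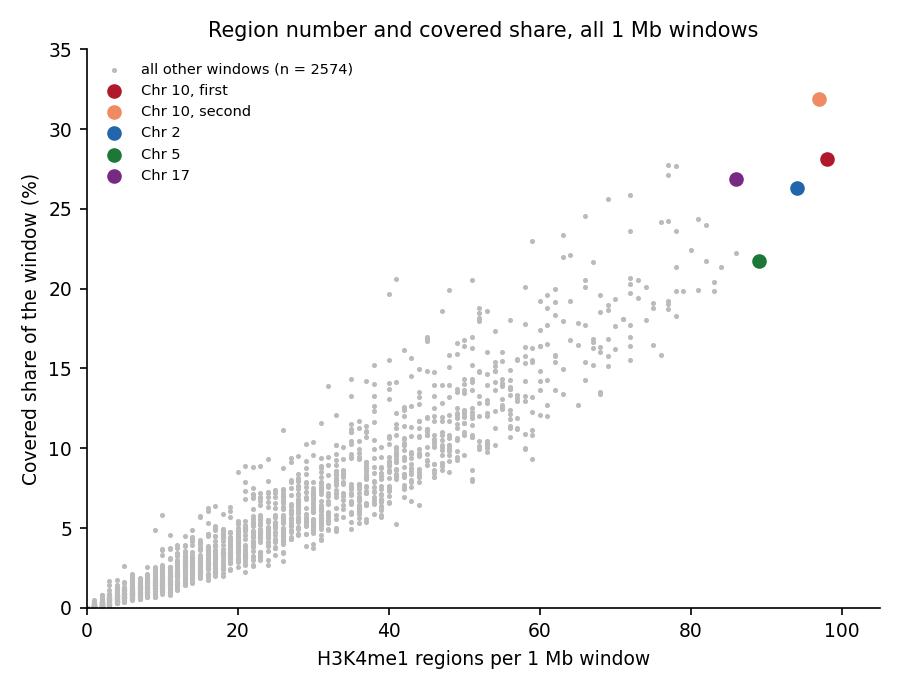
Each point is a 1 Mb window, with its region number on the x axis and its covered share in percent on the y axis, and the 5 windows are coloured. The chromosome 10 windows lead on both axes, and the chromosome 5 window, at 21.7%, lies below several windows with fewer regions.

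By pooled median, members were also longer than regions elsewhere. Their median length was 2075.5 bases (order-statistic 95% interval 1873 to 2306), beside 1581 (1341 to 1779) in the flanking megabases and 1492 (1478 to 1507) in all other windows. The 20 next densest windows had a median of 1798.5 bases (1702 to 1923), so their interval overlapped that of the members. Region length was not part of the selection rule. It comes from the same calls, though, because stitching and calling set both how many regions a stretch holds and how long they are. Medians were 2314.5 and 2321 bases in the chromosome 10 windows, 2126 on chromosome 17, 1907 on chromosome 2 and 1891 on chromosome 5. In that order, they placed 26th, 25th, 57th, 125th and 138th by median among the 1002 windows with 20 or more regions.

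Each window had a longer median than its pooled flanks. The widest difference was on chromosome 17, with 2126 against 1330 bases, and the narrowest was on chromosome 10, with 2321 against 2209 bases. By mean length the chromosome 17 regions were 1.60 times as long as those of the flanks, and the other blocks were 1.08 to 1.13 times as long. Not every single flank had shorter regions. The chromosome 5 window had a mean of 2441 bases, beside 2474 in the megabase before it. The first chromosome 10 window had 2871, beside 3027 in the megabase after the pair. The pooled covered share, 2.87 times that of the flanks, thus combined 2.32 times the number of regions with 1.23 times the mean length (2903 against 2358 bases).

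Regions of at least 5000 bases numbered 63 of 464 (13.6%, Wilson interval 10.8 to 16.995%), beside 24 of 320 (7.50%, 5.09 to 10.9%) in the flanks and 8.87% in all other windows. These 63 held 40.5% of the members' bases, beside 41.9% held by such regions in the 20 next densest windows and 33.9% in all other windows. In the 20 next densest windows the share was 13.1% (11.5 to 14.8%), close to that of the members. Chromosome 17 had 16 such regions of 86 (18.6%) and chromosome 5 had 6 of 89 (6.74%). The shortest length, 501 bases, was held by 47 members (10.1%, 7.70 to 13.2%), beside 12.8% (9.59 to 16.9%) in the flanks, 11.9% (10.4 to 13.6%) in the 20 next densest windows and 14.3% (14.0 to 14.6%) in all other windows. The intervals of the flanks and of the 20 next densest windows overlap that of the members, and that of all other windows lies above it.

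**Figure D4:**
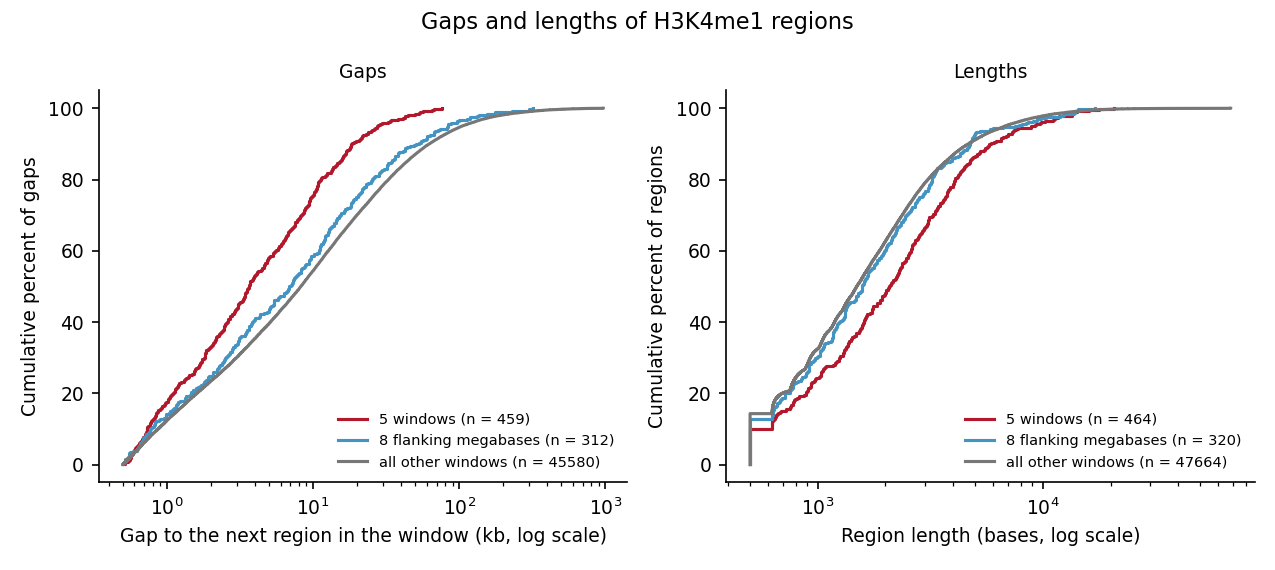
The curves give the cumulative percent of gaps (left, kb, log scale) and of region lengths (right, bases, log scale) for the 5 windows, the 8 flanking megabases and all other windows. The windows' gap curve lies to the left, with a median of 3.66 kb, and their length curve lies to the right, with a median of 2075.5 bases.

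The longest member, on chromosome 2 from 166218408 to 166239050, was 20.6 kb long, where the longest region of the whole list reached 68.4 kb. Chromosome 2 also held one of 16.0 kb (166443513 to 166459529) and one of 10.2 kb (166176927 to 166187118). In the second chromosome 10 window the longest regions were 17.9 kb (80389993 to 80407846), 13.7 kb (80117053 to 80130737) and 13.6 kb (80153360 to 80166916).

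The longest of the first chromosome 10 window were 14.2 kb (79395976 to 79410185), 13.7 kb (79619521 to 79633240) and 9.68 kb (79885432 to 79895110). Chromosome 5 had regions of 14.7 kb (115035762 to 115050458), 13.5 kb (115964251 to 115977789) and 11.2 kb (115225223 to 115236445). Those of chromosome 17 had 13.5 kb (29296896 to 29310432), 11.8 kb (29629634 to 29641412) and 11.3 kb (29571153 to 29582432). The 3 longest regions made up between 13.4% and 18.2% of the members' bases in each window, so the covered share rested on many regions rather than on a few.

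Stitching regions over gaps of up to 12.5 kb gave 86 domains centred in the windows. The domain of chromosome 17 from 29137623 to 29323870 had the most covered bases, with 28 regions covering 109.5 kb of its 186.2 kb, and placed 10th among all domains of the list. It held 32.6% of that window's regions. On chromosome 2 the leading domain, 166211959 to 166390391, had 24 regions covering 77.8 kb of 178.4 kb. The leading domains of chromosome 10 had 14 regions covering 55.6 kb of 98.4 kb (79363510 to 79461915) and 15 regions covering 61.5 kb of 118.1 kb (80926946 to 81045022), the latter crossing the window's end.

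Chromosome 5 differed here, since its leading domain (115956812 to 115994120) had only 6 regions, covering 29.4 kb of 37.3 kb (78.8%), and placed 508th. Domains of 5 or more regions held 86 regions in those centred in the chromosome 2 window, and 54 in those centred in the chromosome 5 window. The number of domains was 12 on chromosome 2 and 21 on chromosome 5, with 19 and 17 in the chromosome 10 windows and 17 on chromosome 17.

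Most members had a close neighbour. The nearest region lay within 2.5 kb for 292 of the 464 (62.9%), beside 44.7% of all other regions. Only 21 members (4.53%) were more than 12.5 kb from any region, beside 21.0% of all others. Those 21 had a median length of 1990 bases, near that of the members as a whole, whereas other regions that far apart had a median of 1290 bases. Among members with a neighbour within 2.5 kb the median was 2255 bases, and for all other regions in that position it was 1533 bases. By median, members were longer than all other regions at each of the distances compared, including 2.5 to 12.5 kb (1911 against 1579 bases). Beyond 12.5 kb this rests on the 21 members, with length quartiles of 1240 and 3217 bases, beside 710 and 2246 for the others. The flanks and the next densest windows were not split by distance. Whether neighbour distance accounts for the longer lengths was not tested.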

How the data were processed

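The submitters' processing notes name Bowtie 0.12.9, HOMER 4.7 and mm9. HOMER findPeaks, run in histone style against input, stitched 500-base peaks into regions, per the file headers. A peak needed at least 26 tags and 4-fold enrichment over input. The score column deposited by the authors is 1 in every row. Regions were therefore described by position (counted from 1), length and gap only.

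The windows, gene list and tests were chosen with earlier results of these data known. Gaps were taken between neighbours with midpoints in the same megabase. Covered shares clip regions at window edges. The rule for naming took each window's 3 longest regions, its longest gap, its leading domain, and the fullest and emptiest bins; windows, runs and bins named beyond it were chosen after their values were seen. Alternatives changed membership, length minimum, joining of close regions, grid, flank width and stitching gap. Routines were tested on simulated data. The 17 background genes looked up were all found on their chromosome in the RefSeq table. Planned results on base composition and genes were not run because no mm9 genome or annotation was used. Python 3.11.15, numpy 2.4.6, pandas 2.3.3, scipy 1.17.1 and matplotlib 3.10.9 were used.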

Additional observations from a re-analysis of the deposited data

How the results depend on the processing

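The pooled count of 464 members stayed within 1.5 times under any-overlap membership (465), a length minimum of 1000 bases (351), shifts of 0.5 Mb to the left (386) and right (368), and the tied chromosome 4 window in place of chromosome 17 (464), and fell to 284 with regions under 2.5 kb apart joined. That joining gave a pooled ratio to the flanks of 1.99 (main value 2.32), a median length of 3247.5 bases and a median gap of 8.12 kb. A minimum of 1000 bases gave a covered share of 25.5% and a median gap of 5.13 kb; whole lengths of members gave 26.94%. Leaving out the shortest length gave a median of 2323 bases. Domains numbered 195 at a stitching gap of 5 kb and 31 at 25 kb (main value 86). Without the chromosome 10 pair, an alternative chosen after seeing the data like the tied window, the ratio was 1.87, the covered share 25.0% and the domains 50, by fewer windows. Over the settings run, ratios to the flanks lay between 1.28 (chromosome 2, close regions joined) and 5.91. For counts of all regions, the choice of the windows by their counts fixes that the ratios are above 1. After joining or a length minimum this is not strictly fixed, but those counts come from the same calls and are not independent of the choice. The covered shares were compared within intervals that treat bases as independent, so that nearly any change counts as a move. Shifting right by 0.5 Mb left 53 regions in the chromosome 17 window, which held 86. No paired analysis was possible because there was 1 library per group. Without tags per region, how far each member lay above the caller's thresholds could not be said.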

Other observations

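The choice of the densest stretches depended on the grid of megabases. Sliding a 1 Mb window from region to region, which was done after seeing the data, gave at most 108 regions on chromosome 10 (79131646 to 80131645) and 104 on chromosome 2 (165635931 to 166635930). With 1 maximum taken per chromosome, next came 100 on chromosome 8 (72406232 to 73406231), 98 on chromosome 7 (19536460 to 20536459) and 95 on chromosome 4 (132477544 to 133477543). None of these 3 overlaps a window of the set. Chromosomes 1 and 19 followed with 92 and 91. Chromosome 17 reached 90 (28600649 to 29600648), as did chromosome 6. Chromosome 5 stayed at 89, the maximum of chromosome 3 as well. The chromosome 10 and 2 stretches thus led under both ways of counting, and the chromosome 5 and 17 stretches did not.

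The deposited list is ordered neither by position nor strictly by length, and what ordered it is not given in the sources used here. List position and length had a Spearman rank correlation of -0.97 over all regions. Members were found among the first 1000 regions 20 times (4.31% of members, beside 2.08% of the list). Set against the 200 regions nearest in length, or against all others of the shortest length, 54.1% of members (Wilson interval 49.5 to 58.6%) came earlier than the median. By length, it was 38.3% (25.8 to 52.6%) of the 47 shortest members, 52.3% (44.9 to 59.5%) of longer ones under 2000 bases, 60.1% (52.8 to 67.0%) of those from 2000 to under 5000 bases and 54.0% (41.8 to 65.7%) of those of 5000 bases or more. The pooled share was 54.3% (51.8 to 56.7%) in the 20 next densest windows and 50.9% (45.5 to 56.4%) in the flanks, and all 3 intervals overlap. Both of these comparison sets include the chromosome 2 megabase from 167000001 to 168000000.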
